A study of Gossypium hirsutum with 3 samples.

Results

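Contig1963, Contig1984 and Contig14677 are 3 of the 11143 gene models on a custom cotton array, and each resembles a plant gene regulator. Their best database matches were a putative TCP-domain protein, a growth-regulating factor and a putative AT-hook DNA-binding protein of rice. They are named here by those matches, which rest on contigs assembled from cotton expressed sequence tags, whose completeness was not checked. The 3 genes were chosen by their change between 10 dpa and 1 dpa fiber (dpa, days post anthesis): the study lists them among putative transcription factors that changed between these stages. Their ratios between the stages are therefore a description and carry no test.

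The study asked which genes differ between elongating fibers and fiber initials of cotton, *Gossypium hirsutum*. Each of 3 arrays carried cDNA of 10 dpa fiber in one dye and cDNA of 1 dpa fiber in the other, and the dyes were exchanged on replicate 2. All plants were field grown and untreated, and the methods name the cultivars DES119 and ST4793R without saying which was used for which RNA. The 10 dpa fiber was dissected off the ovule, whereas 1 dpa fiber RNA came from frozen ovules of many pooled bolls that were vortexed with glass beads. Stage and way of sampling therefore cannot be told apart. The methods and the extraction label give polyribosomal RNA (RNA bound to ribosomes), and the source labels say total RNA.

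Cotton fibers are single cells that grow out of the ovule epidermis, first as initials and then by rapid elongation. TCP proteins are plant transcription factors that bind DNA through a basic helix-loop-helix domain, and members of the family promote or restrain cell division and growth. Growth-regulating factors carry the QLQ and WRC domains, act with GIF coactivators and in Arabidopsis promote cell proliferation in young leaves. AT-hook proteins bind the minor groove of AT-rich DNA, and in Arabidopsis many of them also carry a PPC domain.

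Each gene was read by 4 different probes with 1 spot each, so 12 spots per array and 36 spots over the 3 arrays belong to these genes. The array files give no genome position for these contigs, and the position in the cotton genome was not analysed here. Across the 42034 gene spots, median intensities ran between 234 and 357 for 10 dpa fiber and between 222 and 362 for 1 dpa fiber. The 314 negative control spots set the floor: a spot was called above them where it was brighter than the 95th percentile of that channel, which lay between 71.2 and 133 for 10 dpa fiber and between 74.6 and 187 for 1 dpa fiber. Between arrays, the log2 ratios of all genes correlated with r = 0.839 for replicates 2 and 3, 0.601 for replicates 1 and 3 and 0.575 for replicates 1 and 2, across genes that are not independent replicates. Replicate 1 stood apart, and its negative controls had a median of 73.2 in 10 dpa fiber and 164 in 1 dpa fiber. The methods state 3 biological replications, harvested on different days, while the RNA codes on the arrays show 2 distinct codes per stage. By the codes, replicates 1 and 2 shared their 1 dpa RNA, and replicates 1 and 3 shared their 10 dpa RNA. Whether the methods or the codes hold was not settled, so an SD over 3 arrays may cover fewer than 3 independent samples of each stage. The test used below also treats the 3 arrays as independent, so its calls carry the same limit. Fiber was checked with 6 benchmark genes of fiber development, including MYB2, MYB109 and an RD22-like gene. All 6 had at least 1 of their 3 spots above the negative controls on all 3 arrays in both stages. Counted by single spots, between 81.2% and 91.4% of all gene spots were above them for 10 dpa fiber. For 1 dpa fiber between 86.0% and 92.2% were, so detection of the 6 genes says little about the tissue.

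Contig1963, the TCP-domain match, was the gene of the 3 that was higher in 10 dpa fiber. Normalized intensity here is the geometric mean over 4 probes after background and dye correction. It includes the added offset of 50 and was taken after average brightness had been equalized between arrays. For Contig1963 it was 2385, 2215 and 1907 in 10 dpa fiber of replicates 1, 2 and 3, against 479, 316 and 207 in 1 dpa fiber. The stages did not overlap: the dimmest 10 dpa value was well above the brightest 1 dpa value. The choice of the 3 genes by this contrast favours such a gap, and its share over all genes was not counted. Because the samples are bulk tissue, fewer cells that hold an RNA and less of that RNA per cell cannot be told apart, here and for the other genes. On the log2 scale, 10 dpa fiber stood above 1 dpa fiber by 2.31, 2.81 and 3.20 on the 3 arrays, which averages 2.77 ± 0.44 (SD, n = 3 arrays) or 6.84-fold. By this mean Contig1963 ranked 16th from the highest of 11143 genes. On single arrays it ranked 37, 15 and 12 from the highest, so its place near the top was held on each array.

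All 12 spots of Contig1963 were brighter in 10 dpa fiber, and all 12 were above the negative controls in both stages. The uncorrected spot intensities lay between 804 and 10243 in 10 dpa fiber and between 135 and 1523 in 1 dpa fiber. By their means, the 4 probes of the gene fell into a pair with smaller ratios and a pair with larger ones. On replicate 1, probe 4 lay nearer to probes 1 and 2, at 2.07 against 1.84 and 1.63. Probes 1 and 2 averaged 2.00 ± 0.20 and 1.94 ± 0.37 on the log2 scale (SD, n = 3 arrays), or 3.99-fold and 3.85-fold. Probes 3 and 4 averaged 3.79 ± 0.18 and 3.37 ± 1.15, or 13.8-fold and 10.3-fold. The size of the rise thus depended on the probe, and its direction did not.

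Probe 4 of Contig1963 was also the probe that varied most between arrays. Its spot read 10243, 4809 and 4376 in 10 dpa fiber of replicates 1, 2 and 3, against 1523, 479 and 209 in 1 dpa fiber, and its log2 ratios were 2.07, 3.81 and 4.23. The 1 dpa spot of replicate 1 was the bright one among its 3 arrays, and that array gave the smallest ratio. Probe 3 read 5426, 2391 and 2219 in 10 dpa fiber, against 375, 253 and 135 in 1 dpa fiber, with log2 ratios of 3.71, 3.66 and 3.99. That probe gave nearly the same ratio on every array after normalization, replicate 1 included. With background subtracted but no normalization, its log2 ratios were 4.08, 3.47 and 4.58.

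Contig1984, the growth-regulating factor match, was lower in 10 dpa fiber. Its normalized intensity was 204, 171 and 198 in 10 dpa fiber of replicates 1, 2 and 3, against 559, 817 and 583 in 1 dpa fiber. The 10 dpa values lay close together, and the 1 dpa value of replicate 2 was the highest. The stages did not overlap, a gap that the choice of the gene favours. The log2 ratio was -1.45, -2.26 and -1.56, which averages -1.75 ± 0.44 (SD, n = 3 arrays), a level 3.37-fold lower in 10 dpa fiber. By this mean it ranked 34th from the lowest of all genes, and on single arrays it ranked 59, 23 and 80 from the lowest. Replicate 2, the array with exchanged dyes, gave the largest fall of the 3, at 4.78-fold, against 2.73-fold and 2.94-fold on replicates 1 and 3.

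All 12 spots of Contig1984 were dimmer in 10 dpa fiber, but part of that signal lay near the floor. Uncorrected intensities lay between 76.5 and 638 in 10 dpa fiber and between 136 and 3197 in 1 dpa fiber. In 10 dpa fiber 10 of 12 spots were above the negative controls, and in 1 dpa fiber 12 of 12 were. The spots that were not belonged to probe 1, which read 90.1, 85.3 and 76.5 in 10 dpa fiber of replicates 1, 2 and 3, against 206, 213 and 136 in 1 dpa fiber. Only on replicate 3, where the percentile was 71.2, did the 10 dpa spot of probe 1 pass it. Probe 1 also gave the smallest ratio of the 4 probes on every array after normalization, but not on replicate 1 before it.

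After normalization, the probes of Contig1984 kept one order on all 3 arrays, from the smallest fall at probe 1 to the largest at probe 4. With background subtracted but no normalization, probes 1 to 4 of replicate 1 gave -1.68, -1.34, -1.34 and -2.01, so the order did not hold there. On replicate 3, probes 2 and 3 then changed places, at -1.91 and -1.83. The normalized mean log2 ratios were -0.91 ± 0.50, -1.64 ± 0.45, -2.01 ± 0.45 and -2.46 ± 0.43 for probes 1 to 4 (SD, n = 3 arrays). As folds these were 1.88, 3.11, 4.03 and 5.49 times lower in 10 dpa fiber. Probe 4 read 542, 323 and 334 in 10 dpa fiber of replicates 1, 2 and 3, against 2054, 3197 and 1232 in 1 dpa fiber. Those readings were above the negative controls in both stages on every array, so the fall did not rest on the dim probe alone. With probe 1 left out, the mean log2 ratio of the gene was -2.04.

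Contig14677, the AT-hook match, was also lower in 10 dpa fiber, by less and with 1 array apart from the other 2. Its normalized intensity was 418, 379 and 442 in 10 dpa fiber of replicates 1, 2 and 3, against 621, 1148 and 1245 in 1 dpa fiber. The 10 dpa values were alike, while the 1 dpa value of replicate 1 was far below those of replicates 2 and 3. The stages still did not overlap, which the choice of the gene again favours. The log2 ratio was -0.57, -1.60 and -1.49, which averages -1.22 ± 0.56 (SD, n = 3 arrays) or 2.33-fold lower in 10 dpa fiber. By single arrays the fall was 1.49-fold on replicate 1, 3.03-fold on replicate 2 and 2.82-fold on replicate 3. Its rank from the lowest was 111 by the mean, but 1105, 80 and 88 on the single arrays, so replicate 1 alone placed it far from the strongest falls.

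Of the 12 spots of Contig14677, 11 were dimmer and 1 was brighter in 10 dpa fiber. The brighter spot was probe 2 on replicate 1, with 511 in 10 dpa fiber and 396 in 1 dpa fiber and a log2 ratio of 0.36. On replicates 2 and 3 the same probe read 349 and 419 in 10 dpa fiber, against 1474 and 960 in 1 dpa fiber, with log2 ratios of -1.73 and -1.40. Probe 2 thus reversed between arrays, and its mean of -0.92 ± 1.13 is smaller than its SD. Probe 1 averaged -0.83 ± 0.61 and probe 3 averaged -1.14 ± 0.39, and both were at their weakest on replicate 1.

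Probe 4 of Contig14677 behaved differently from the other 3. It read 1217, 474 and 556 in 10 dpa fiber of replicates 1, 2 and 3, against 2993, 2696 and 1931 in 1 dpa fiber. Its log2 ratios of -1.83, -2.10 and -2.07 averaged -2.00 ± 0.15, or 4.01-fold lower in 10 dpa fiber. After normalization, this probe showed the fall on replicate 1 as well, with almost the size it had on the other arrays. With background subtracted but no normalization, its log2 ratios were less alike, at -1.32, -2.63 and -1.88. All 12 spots of the gene were above the negative controls in both stages, with uncorrected intensities between 230 and 1217 in 10 dpa fiber and between 396 and 2993 in 1 dpa fiber.

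**Figure D1:**
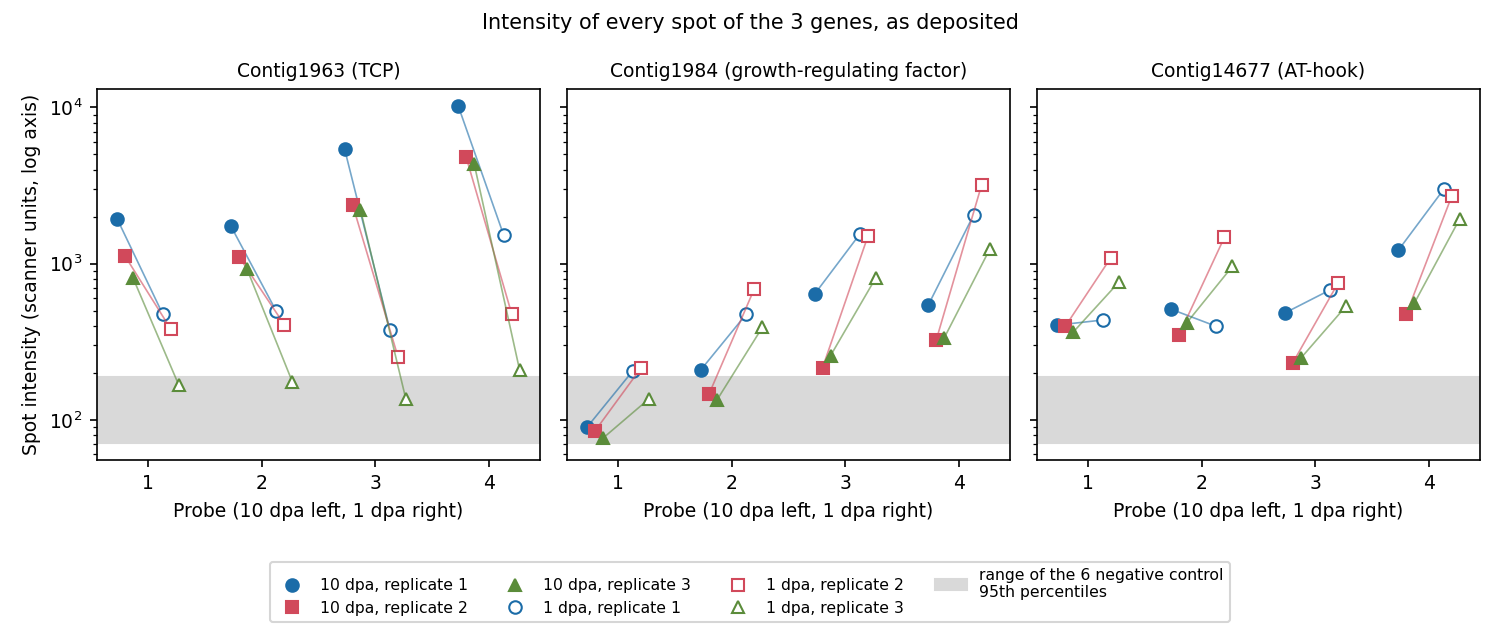
Uncorrected intensity of every spot (scanner units, log axis) for probes 1 to 4 of each gene, with 10 dpa fiber as filled symbols on the left and 1 dpa fiber as open symbols on the right of each probe, lines joining the stages of 1 array, and the grey band spanning the 95th percentiles of the negative controls (71.2 to 187). All 12 lines fall for Contig1963 and all 12 climb for Contig1984, while 1 of the 12 lines of Contig14677 runs against the rest.

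**Figure D2:**
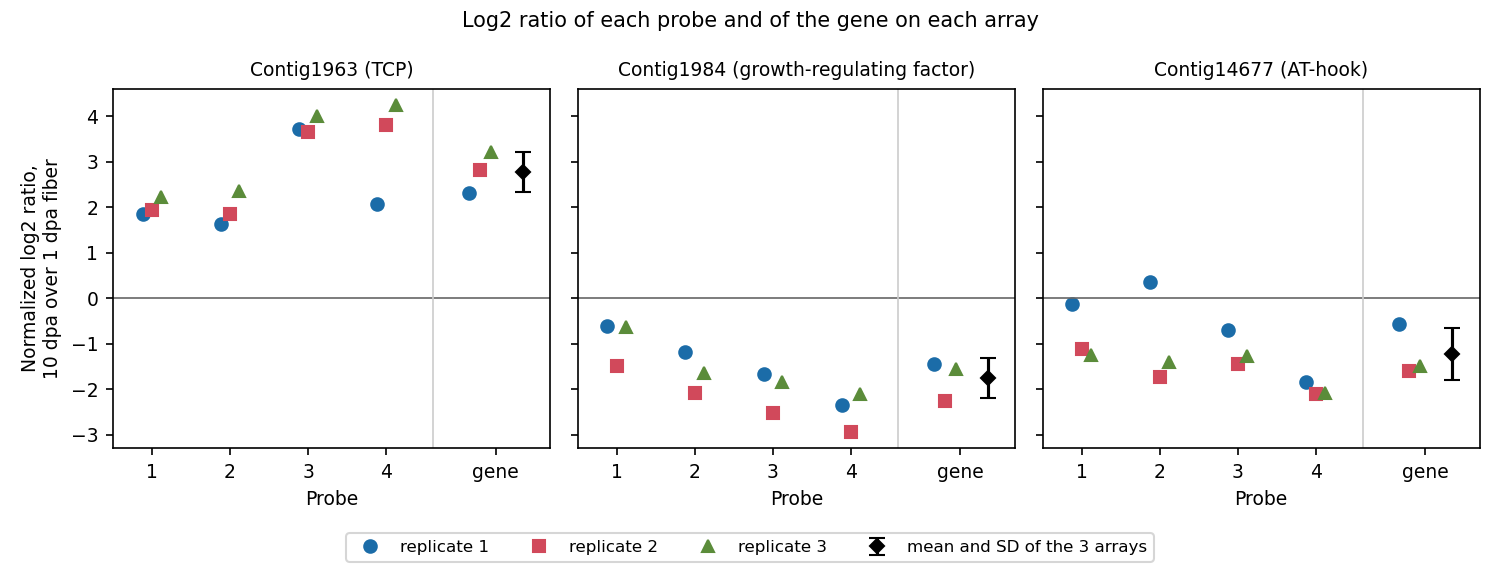
Normalized log2 ratio of 10 dpa over 1 dpa fiber for each probe and for the gene on replicates 1, 2 and 3, with a diamond and bar for the mean and SD of the 3 arrays. The ratios of Contig1963 lie above 0, those of Contig1984 below 0, and those of Contig14677 below 0 except probe 2 on replicate 1.

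The plots of intensities and of ratios by probe show that replicate 1 gave the smallest ratio of the 3 arrays for each gene, the rise and both falls alike. The negative controls of that array were brighter in 1 dpa fiber, as given above, but on every array they were brighter in the same dye, Cy3. On replicate 3 their median was 83.7 in 1 dpa fiber (Cy3) and 62.9 in 10 dpa fiber. On replicate 2 it was 84.5 in 10 dpa fiber (Cy3) and 62.9 in 1 dpa fiber. The part of the negative controls in these ratios was not tested. Taking the negative controls as background gave 2.31 for Contig1963, -1.45 for Contig1984 and -0.57 for Contig14677 on replicate 1. These equal the values above to 2 decimals, in a setting that can change little because the correction itself estimates an even background. Without replicate 1, the mean log2 ratios were 3.00, -1.91 and -1.55.

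The probes of these genes disagreed more than those of most genes, which were not matched to them in the size of the ratio. How far the spread between probes follows that size was not tested. The SD between the 4 probe means was 0.94 for Contig1963, 0.65 for Contig1984 and 0.54 for Contig14677 on the log2 scale, against a median of 0.17 over the 8604 genes with 4 probes. Among the 1153 genes with 4 probes that passed the adjusted p, the median SD was 0.33, and 95.8% had a smaller SD than Contig1963, 86.9% than Contig1984 and 78.3% than Contig14677. By mean, the probe with the largest ratio was probe 4 in Contig1984 and Contig14677 and probe 3 in Contig1963. On replicates 2 and 3 taken singly it was probe 4 in Contig1963 too, at 3.81 and 4.23. Across those 1153 genes the largest ratio lay at probe 4 in 47.4% and at probe 3 in 26.4%, so a large ratio at the higher-numbered probes was common on this array. What the probe numbers stand for is not given in the sources used here, and no probe sequences were used.

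Against all genes of the array, the 3 genes lay in the tails of the distribution. In limma's test of the ratio against 0 over all genes, with Benjamini-Hochberg adjustment at 0.05, 895 genes (8.03%) were higher and 625 genes (5.61%) were lower in 10 dpa fiber. Of the 3 genes, 1 was called higher and 2 were called lower, which their choice by this contrast had set. The balance depended on the processing: without replicate 1, 979 genes were higher and 1212 lower, and with median centring 512 were higher and 191 lower. With the arrays scaled to one spread, or with an F-test for each gene alone, 0 genes were called (2699 and 1811 at an unadjusted p under 0.05). The spread of the ratios of the 3 genes between arrays was wide for the array: 85.5% of genes had a smaller SD than Contig1963, 85.0% had a smaller SD than Contig1984 and 92.9% had a smaller SD than Contig14677. These shares are over all genes, 9623 of them uncalled, and the share among called genes was not taken.

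**Figure D3:**
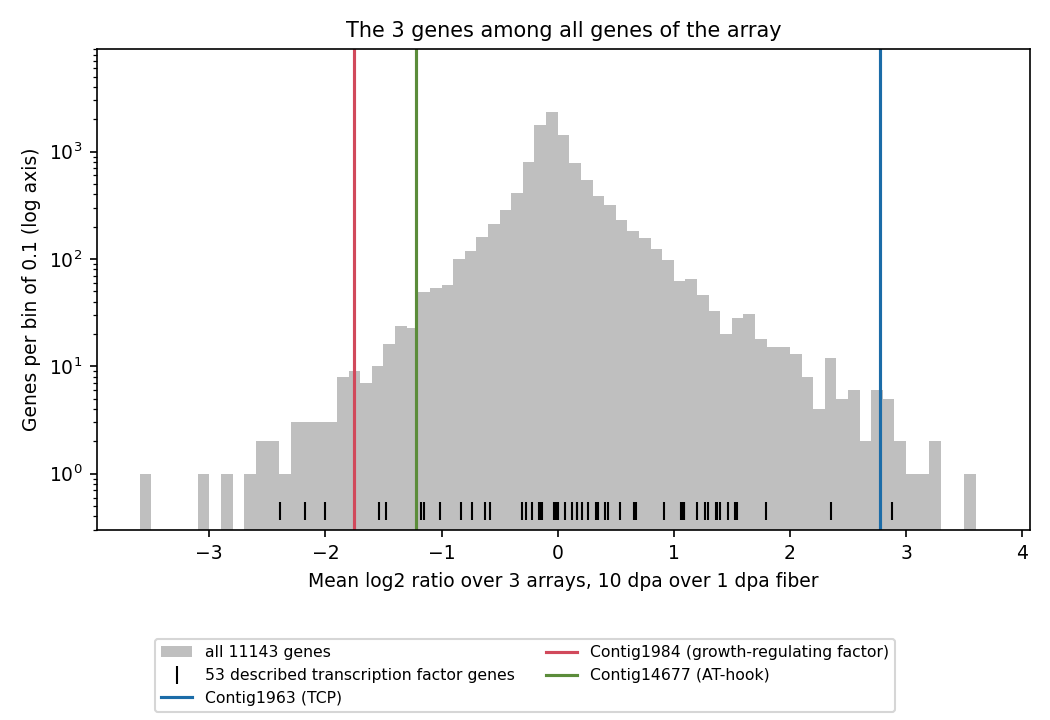
Number of genes (log axis, bins of 0.1) by mean log2 ratio of 10 dpa over 1 dpa fiber over 3 arrays, with colored lines at the 3 genes and black ticks at 53 other described transcription factor genes. Contig1963 lies at 2.77 on the right, and Contig1984 at -1.75 and Contig14677 at -1.22 lie on the left.

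The ratios of the genes were also set against each other on each array, where background and dye are shared. The log2 ratio of Contig1963 exceeded that of Contig1984 by 3.77, 5.07 and 4.76 on replicates 1, 2 and 3. It exceeded that of Contig14677 by 2.89, 4.41 and 4.70. The ratios of both falling genes lay closer together: that of Contig14677 was above that of Contig1984 by 0.88, 0.66 and 0.06, so on replicate 3 they were nearly equal.

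The study names 15 other putative transcription factors for this contrast, which it chose on these samples, so their directions are not independent evidence. All 15 passed limma's adjusted p, 8 higher and 7 lower in 10 dpa fiber, beside 8.03% higher and 5.61% lower of all genes. With scaling between arrays, or with the F-test for each gene alone, 0 genes of the array were called. Contig15981, a LIM-domain match, had the largest rise, with log2 ratios of 2.64, 3.05 and 2.94 and a mean of 2.88 ± 0.21 (SD, n = 3 arrays) or 7.34-fold. Contig1963 came next below it, ahead of the other rising genes of that list. Contig13, a homeobox match, had the largest fall, with log2 ratios of -1.75, -2.96 and -2.47 and a mean of -2.39 ± 0.61. Contig1984 and Contig14677 lay between it and the smallest fall. Nearest to 0 were Contig17592, a MYB match at 1.08 ± 0.29, and R10M_10R_E12_InvR_30Aug04_088.ab1, a match to rice TA3 protein at -1.10 ± 0.35.

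**Figure D4:**
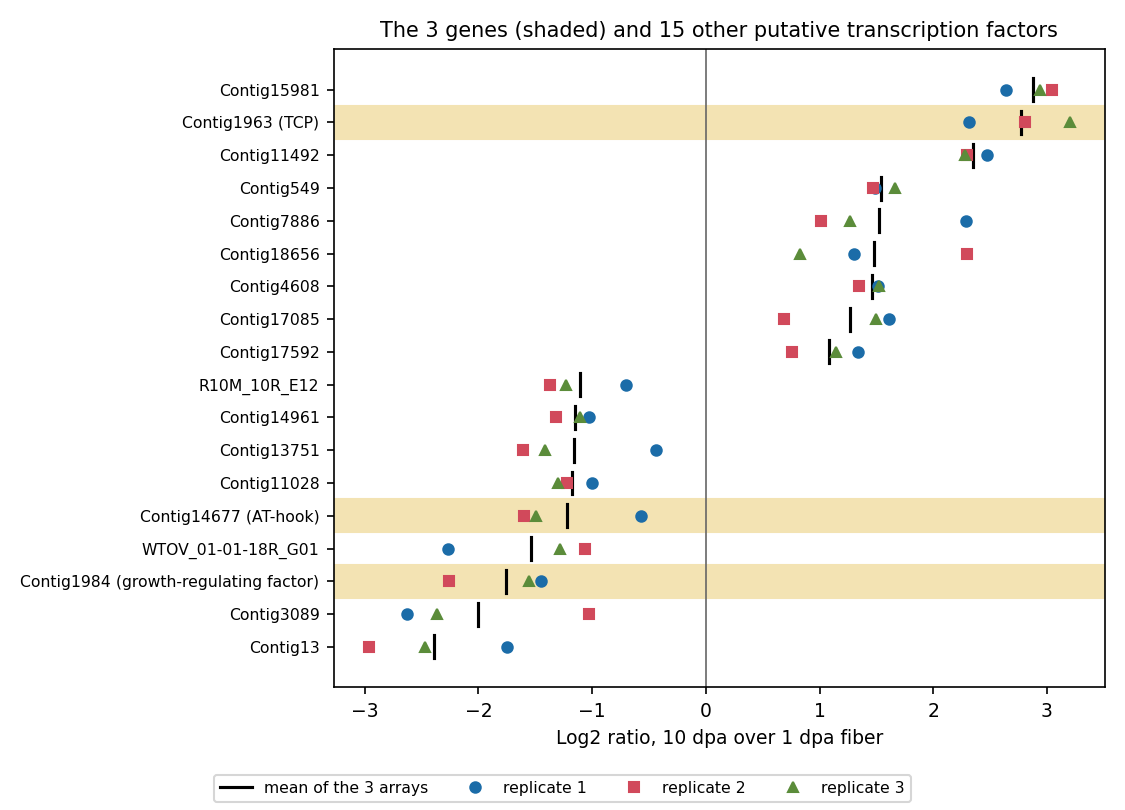
Log2 ratio of 10 dpa over 1 dpa fiber on replicates 1, 2 and 3 (symbols) with the mean (black bar) for the 3 genes (shaded) and the 15 other putative transcription factors, ordered by mean. Contig1963 at 2.77 is second to Contig15981 at 2.88, and Contig1984 at -1.75 and Contig14677 at -1.22 lie among the lower genes.

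A wider list held 53 other genes described as transcription factors or DNA-binding proteins, 7 of them by weak matches, and it shares genes with the list above. Of these, limma's adjusted p called 18 (34.0%) higher and 10 (18.9%) lower in 10 dpa fiber, with 25 uncalled, and their median log2 ratio was 0.21. Over all genes tested the median was -0.04, and 8.03% rose and 5.61% fell. Most described genes were listed by the study for a change on its arrays, and of all 1036 described genes 42.0% rose, 23.1% fell and the median was 0.33. No test was made of these shares.

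Because TCP proteins and growth-regulating factors are known for a part in cell proliferation, 16 genes described by words for cell division and chromatin were counted, 2 of them by weak matches. By limma's adjusted p, 2 rose and 6 fell in 10 dpa fiber and 8 were uncalled, with a median log2 ratio of -0.52. That is 12.5% higher and 37.5% lower, beside 8.03% and 5.61% of all genes and 42.0% and 23.1% of described genes, and no test was made of these shares. The gene farthest from 0 was Contig4454, a histone H1 match, at -1.78 ± 0.14 (SD, n = 3 arrays). Contig3145, a prohibitin match, followed at -1.33 ± 0.25, and Contig13847, a histone H3 match, fell by 1.15 ± 0.46. TMIRS_190_H08.F, a weak match to a cyclin-like protein, rose by 1.10 ± 0.12. As a sign of other ovule tissue, words for seed and inner ovule genes found only Contig16777, a putative storage protein, which was higher in 10 dpa fiber at 0.83 ± 0.33.

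For each gene, the described genes with the most similar ratios were found by the root mean square difference of log2 ratios over the 3 arrays, among 1033 candidates. Among the nearest to Contig1963 were Contig88, an acid phosphatase match, at 0.14, and HYP7_01-01-23R_C12_InvR_21Apr04_092.ab1, a lipase match, at 0.16. Nearest to Contig1984 were Contig3018, an expressed protein of unstated function, at 0.11, Contig2595, a weak match to a recQ helicase, at 0.19, and Contig4366, a plasma membrane intrinsic protein match, at 0.20. Nearest to Contig14677 were Contig1120, an unnamed protein, at 0.08, Contig13751, a TINY-like transcription factor match, at 0.09, and Contig13630, described as negatively light-regulated, at 0.11. Contig13751 shared the weak fall on replicate 1, with log2 ratios of -0.44, -1.61 and -1.42. Counted over all other genes of the array, described or not, 28 lay within a difference of 0.5 of Contig1963, 49 of Contig1984 and 229 of Contig14677. A likeness over 3 arrays thus singles out no gene, least of all for Contig14677.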

How the data were processed

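Labelled cDNA of 10 dpa and 1 dpa cotton fiber was hybridized to 3 two-colour Agilent arrays. Arrays that carried ovule cDNA were left out. The deposited scanner files hold a mean intensity per spot and a mean local background, in both channels, extracted by the authors' service with Agilent Feature Extraction, with no background subtraction or dye normalization. A deposited table of log2 ratios (red over green) equals these intensities after plain background subtraction, uncentred and with the dye swap not turned. No identifier in it matches a probe, so it served only to check dye direction. The authors' comparison values were not used.

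Intensities were corrected with limma's normexp (offset 50). Loess then removed dye bias on every array, with 2256 control spots at weight 0. Levels per stage were equalized between arrays in average brightness. Spots were averaged to 40372 probes and 11143 genes. Replicates were numbered by accession and have no order. A difference of the log2 ratio (10 dpa over 1 dpa) from 0 was tested with lmFit and eBayes and Benjamini-Hochberg adjustment at 0.05, with the array as block because both stages share it. The software was R 4.3.3 with limma 3.58.1 and jsonlite 2.0.0, and the fit was tested on simulated data. The number of arrays limits the precision.

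The 3 genes and all gene lists were chosen with earlier results of these data known. Genes named are the 3, the extremes and the 2 nearest to 0 among the transcription factors the study names, the 4 of the cell division list farthest from 0, and the 3 nearest described genes of each, of which 1 is not reported here. Descriptions are the study's best database hits, and a hit with an expect value over 1e-05 is named weak. Alternatives were no background subtraction, normexp with offset 0, centring on the median, a filter on dim spots, scaling between arrays, the median of probes, a dye term, channels as single samples, an F-test for each gene alone, and leaving out each replicate. Plain subtraction without normalization, negative controls as background and leaving out each probe were added after seeing the data. The study's ANOVA over all its arrays needs the ovule arrays and was not run.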

Additional observations from a re-analysis of the deposited data

How the results depend on the processing

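Contig1963, Contig1984 and Contig14677 kept their direction in all 17 alternatives each. Leaving out 1 replicate or 1 probe could not reverse a gene, because its ratio on every array and every probe mean already had that direction. Their mean log2 ratios spanned 2.44 (without probe 3) to 3.11 (scaling between arrays), -2.19 (normexp with offset 0) to -1.50 (without replicate 2), and -1.55 (without replicate 1) to -0.96 (without probe 4). Leaving out 1 replicate gave 2.56 to 3.00, -1.91 to -1.50 and -1.55 to -1.03. None of the 12 probe means changed sign, although the filter on dim spots and the single channels left the genes and probes at the same values and so bear on neither. Probe 1 of Contig1984, near the negative controls, moved most, from -0.91 to -1.82 with offset 0 and -1.73 with plain subtraction. All 3 genes lost their call under scaling between arrays and the F-test for each gene alone, and Contig14677 also under median centring. Genes past limma's adjusted p numbered 1520 (2773 at an unadjusted p under 0.05), 703 with median centring (512 higher and 191 lower, against 895 and 625), 949 with the channels as single samples and no replicate block, and 891 with plain background subtraction and no normalization. Leaving out replicates gave 1250 to 2191, the most without replicate 1, when 979 were higher and 1212 lower. They numbered 0 with scaling between arrays (2699 unadjusted) and 0 with the F-test for each gene alone (1811 unadjusted). Of the 53 transcription factor genes, 28 passed (34 unadjusted), 0 with scaling (31 unadjusted) and 0 with that F-test (23 unadjusted). The cause of these shifts was not tested. All probes of the 3 genes share 1 name prefix, so the alternative without prefixed probes gave no value.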
